A study of Mus musculus with 12 samples.

Results

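The HoxC cluster genes are the genes of the deposited count table whose symbol is Hoxc followed by a number. There were 7 of them among 15156 named genes: Hoxc13, Hoxc10, Hoxc9, Hoxc8, Hoxc6, Hoxc5 and Hoxc4. The annotation (GENCODE vM39 on GRCm39) places 9 HoxC genes on the plus strand of chromosome 15; Hoxc12 and Hoxc11 have no row and were not analysed here. Of the 7 members, 5 passed the filter on low counts and were tested; Hoxc10 and Hoxc9 did not pass it and are given by their counts.

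Hox genes encode homeodomain transcription factors that set the identity of body segments along the head-to-tail axis. Within a cluster they lie in the order in which they are used along that axis, so that Hoxc4, at the 3′ end, marks more anterior levels and Hoxc13, at the 5′ end, the most posterior ones. Fibroblasts are known to keep, in culture, a Hox pattern that reflects where in the body they came from, and Polycomb complexes hold unused Hox genes silent while Trithorax complexes keep used ones active.

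The cells were mouse embryonic fibroblasts made immortal by E6, a papillomavirus protein that directs p53 to degradation, and all 3 lines carry it. Per the labels, 1 line was p27-null (p27 KO), lacking the cyclin-dependent kinase inhibitor that Cdkn1b encodes, and the wild-type lines were p27 WT clone1 and p27 WT clone2 (p27+/+). RNA was sequenced from 4 experiments per line (n = 4 each, 12 libraries) after 24 h in full medium with 10% serum. The line with the label p27 KO is called the KO-labelled line. As 1 line stands for the null genotype, genotype and line cannot be told apart. Whether the 4 experiments of a line were grown as separate cultures is not in the labels; p-values reflect the spread among these 12 samples, and that spread may be technical.

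Libraries held 15.4 to 24.0 M counts in named genes. Cdkn1b itself was at 83.7 to 118 CPM (counts per 1 M counts in named genes) in the KO-labelled libraries, at 86.8 to 101 CPM in wild-type clone 1 and at 88.6 to 120.0 CPM in wild-type clone 2; its counts did not tell the lines apart and thus do not check the label. Of 12 fibroblast markers 10 had a row, none was at 0 in any line, and their summed level was 16960 to 28330 CPM over the 12 libraries, although decorin (Dcn) was at 0.274 CPM in the KO-labelled line against 38.3 and 13.8 CPM in wild-type clones 1 and 2. Epithelial markers summed to at most 1.49 CPM; endothelial markers summed to 5.81 to 15.8 CPM in wild-type clone 1 and to at most 2.19 CPM in the other lines. Of the neural list Tubb3, Nes and Map2 had a row and summed to 68.2 to 236.9 CPM, of the muscle list Acta1, at 3.43 to 42.2 CPM, and of the blood list Cd68, at 1.33 to 2.73 CPM; the neural and muscle lists were highest in wild-type clone 1, and the part of these markers in the results was not tested. The experiment 1 libraries of the KO-labelled line and of wild-type clone 1 stood apart, with 1.06 to 1.33% mitochondrial counts against 1.74 to 3.09% in the other 10 libraries and 5.30 to 5.48% ribosomal protein counts against 3.34 to 4.94%. In bulk samples, fewer cells that use a gene and less RNA per cell cannot be told apart.

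All members share the homeobox, the coding stretch for the DNA-binding homeodomain. Homeoboxes of 4 of the tested genes are shown to let the reader judge how far their reads can be told apart, since this is the stretch in which paralogues are most alike. Each has 180 bases, is printed 5′ to 3′ from the GRCm39 transcripts, and has in capitals the 18 bases for the conserved core of the DNA-recognition helix.
Hoxc13, chr15:102835645-102835824: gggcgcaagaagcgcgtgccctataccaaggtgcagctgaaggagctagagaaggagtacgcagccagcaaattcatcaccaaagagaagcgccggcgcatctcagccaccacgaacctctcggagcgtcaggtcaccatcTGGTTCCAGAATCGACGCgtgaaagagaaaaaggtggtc
Hoxc8, chr15:102901003-102901182: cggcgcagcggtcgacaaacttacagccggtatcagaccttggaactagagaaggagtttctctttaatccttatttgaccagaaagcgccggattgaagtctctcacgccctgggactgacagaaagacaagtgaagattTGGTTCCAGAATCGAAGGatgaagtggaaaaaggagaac
Hoxc6, chr15:102919186-102919365: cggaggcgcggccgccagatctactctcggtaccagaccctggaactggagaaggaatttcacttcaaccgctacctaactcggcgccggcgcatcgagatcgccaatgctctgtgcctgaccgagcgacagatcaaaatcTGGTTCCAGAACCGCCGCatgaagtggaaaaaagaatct
Hoxc4, chr15:102944089-102944268: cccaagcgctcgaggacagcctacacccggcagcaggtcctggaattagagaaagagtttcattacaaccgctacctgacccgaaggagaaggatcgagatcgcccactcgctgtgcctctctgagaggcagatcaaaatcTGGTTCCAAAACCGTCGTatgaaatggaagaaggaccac

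Of these 4, the closest pair, Hoxc6 and Hoxc4, had 70.6% of homeobox bases in common, and the most distant, Hoxc13 and Hoxc6, had 51.1%. The longest run of identical bases between the homeoboxes of any pair of the 4 was 20 bases, between Hoxc6 and Hoxc4. No run of 100 bases of a Hoxc8, Hoxc6 or Hoxc4 transcript occurred in a transcript of another gene. For the other members the shared runs lay with overlapping genes of the same locus: 3.64% of the Hoxc13 runs with the antisense RNA Gm62014, 8.29% of the Hoxc9 runs with the antisense RNA Gm36878, and 3.23% of the Hoxc10 and 2.31% of the Hoxc5 runs with each other. The strand setting of the counting is not given in the sources used here, so reads in the antisense overlaps cannot be assigned with certainty. Hoxc10 and Hoxc5 lie on the same strand, so no strand setting would separate reads in their overlap. Gm62014, Gm36878, the antisense RNA Hotair and the microRNA genes Mir196a-2 and Mir615 have no row and were not analysed here.

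Hoxc4 to Hoxc8, at the anterior side of the cluster, were well above both wild-type lines in the KO-labelled line, and Hoxc13, at the other end, was above both other lines in wild-type clone 2. Against the 8 wild-type libraries pooled, 4 members rose (Hoxc4, Hoxc5, Hoxc6 and Hoxc8) and 1 fell (Hoxc13), where 8.47% of the 14392 genes tested rose and 10.3% fell (edgeR adjusted p under 0.05). The 4 that rose passed the filter on low counts through the KO-labelled libraries, and Hoxc13 passed it through those of wild-type clone 2. The directions of these calls are thus largely set by the filter, and the shares over all genes are no measure of them. In a voom fit with the line as a random block, Hoxc4, Hoxc5 and Hoxc6 kept their calls. Hoxc8 (log2 fold change 3.77, voom adjusted p = 0.0899) and Hoxc13 (-3.43, voom adjusted p = 0.654) lost theirs. That fit uses 1 correlation within lines for all genes and still draws on the libraries, so it is not a test between lines. With the experiment number as a block Hoxc13 lost its call (edgeR adjusted p = 0.0967). With no filter on low counts the median log2 fold change of all 7 members was 3.11, beside -0.02 for all 15156 genes. The comparison sets the KO-labelled line against both wild-type lines. It shares its libraries with the comparisons against each wild-type line, which follow gene by gene from the anterior end.

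Hoxc4 (ENSMUSG00000075394, chr15:102927366-102945278) takes part in patterning the vertebrae and, in mice, the musculature of the oesophagus. It was at 8.37, 6.15, 9.17 and 9.75 CPM in experiments 1 to 4 of the KO-labelled line. The same gene was at 0.572, 0.278, 0.319 and 0.125 CPM in wild-type clone 1 and at 0, 0, 0.111 and 0.0564 CPM in wild-type clone 2, the last being 3 counts in all. Every KO-labelled library thus lay above every wild-type library, and wild-type clone 2 lay below clone 1. Hoxc4 rose by 4.63 ± 0.35 (SE) on the log2 scale over wild-type clone 1 (edgeR adjusted p = 3.6e-07). Over wild-type clone 2 the ratio of CPM was 215.5, with an exact 95% counting interval of 73.4 to 1048 (edgeR adjusted p = 6.9e-08); such intervals cover counting error only.

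Hoxc5 (ENSMUSG00000022485, chr15:102875878-102925861) acts with its HoxA paralogue in the motor neurons of the diaphragm in mice. Its annotated span is long because of 1 transcript that starts within an exon of Hoxc10; the main transcript lies between Hoxc6 and Hoxc4. It was at 10.7, 6.69, 11.8 and 11.7 CPM in the KO-labelled libraries, with experiment 2 the lowest, and at 0.520, 0.445, 0.584 and 0.188 CPM in wild-type clone 1. In wild-type clone 2 it had a single count, in experiment 4. The groups did not overlap, and Hoxc5 rose by 4.51 ± 0.31 over wild-type clone 1 (edgeR adjusted p = 1.4e-07). The ratio over wild-type clone 2 was 787.7 (counting interval 140.9 to 31160; edgeR adjusted p = 1.8e-08).

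Hoxc6 (ENSMUSG00000001661, chr15:102906689-102920315), which marks motor neurons at forelimb level, was the most highly counted member in the KO-labelled line. Its CPM were 12.9, 11.5, 17.6 and 14.9 in that line, 0.677, 0.945, 0.691 and 0.437 in wild-type clone 1 and 0.0415, 0.114, 0.221 and 0 in wild-type clone 2. Again the lowest KO-labelled library was above the highest wild-type library. Hoxc6 rose by 4.35 ± 0.28 over wild-type clone 1 (edgeR adjusted p = 9.8e-08) and by 7.18 ± 0.38 over wild-type clone 2 (edgeR adjusted p = 1.4e-08); without experiment 3 of wild-type clone 2 the latter was 7.95.

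Hoxc8 (ENSMUSG00000001657, chr15:102898851-102902543), a regulator of lower-neck and chest segments, showed the smallest difference of the 4. It was at 2.52, 2.84, 4.32 and 4.10 CPM in the KO-labelled libraries, at 0.364, 0.778, 1.01 and 0.562 CPM in wild-type clone 1, and at 0.0415, 0, 0.277 and 0.169 CPM in wild-type clone 2. These groups did not overlap either, and Hoxc8 rose by 2.33 ± 0.38 over wild-type clone 1 (edgeR adjusted p = 0.000314) and by 4.80 ± 0.49 over wild-type clone 2 (edgeR adjusted p = 5.3e-06; 5.53 without experiment 3 of wild-type clone 2). Against wild-type clone 1 the log2 fold changes of Hoxc6, Hoxc5 and Hoxc4 overlapped within their standard errors, and that of Hoxc8 lay below them by more than those errors; differences between genes were not tested.

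**Figure D1:**
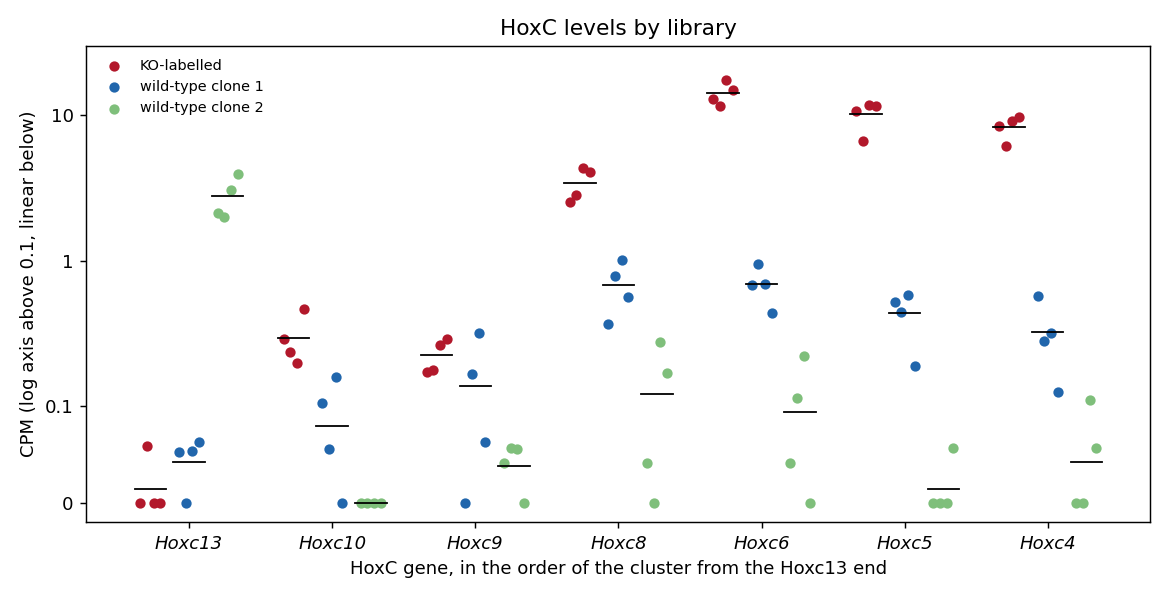
CPM of each HoxC gene in each of the 12 libraries, in cluster order from the posterior (Hoxc13) to the anterior (Hoxc4) end; points are libraries, horizontal lines are means of 4, and the axis is logarithmic above 0.1 and linear below. The KO-labelled libraries lie above all wild-type libraries for Hoxc8 to Hoxc4, and those of wild-type clone 2 lie above all others for Hoxc13.

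In the middle of the cluster counts were few. Hoxc9 (ENSMUSG00000036139, chr15:102884117-102893531), which in mice holds the thoracic identity of motor neurons, had 3, 3, 4 and 5 counts in the KO-labelled libraries, 0, 3, 6 and 1 in wild-type clone 1 and 1, 1, 1 and 0 in wild-type clone 2. Its libraries overlapped between the KO-labelled line and wild-type clone 1, at a ratio of 1.61 (counting interval 0.678 to 4.02). The ratio over wild-type clone 2 was 5.78 (counting interval 1.64 to 31.2), with no overlap. Hoxc10 (ENSMUSG00000022484, chr15:102875134-102880330), a gene of lumbar levels and of the hindlimb, had 5, 4, 3 and 8 counts in the KO-labelled libraries, 2, 1, 3 and 0 in wild-type clone 1 and 0 in all 4 of wild-type clone 2. It was 3.59-fold higher than in wild-type clone 1 (counting interval 1.39 to 10.9) and at least 7.71-fold higher than in wild-type clone 2, taking 3 counts over that line as the floor. Per CPM, the lowest KO-labelled library was above the highest of wild-type clone 1. Reads in the stretch that Hoxc10 shares with Hoxc5 cannot be assigned, and their part in the Hoxc10 counts was not tested.

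With no filter on low counts, edgeR called Hoxc10 against the pooled wild-type libraries (log2 fold change 2.70 ± 0.74, edgeR adjusted p = 0.0236) and did not call Hoxc9 (1.31 ± 0.70, edgeR adjusted p = 0.223). By line, the same fit called Hoxc10 against wild-type clone 1 (1.77 ± 0.62, edgeR adjusted p = 0.0475) and Hoxc9 against wild-type clone 2 (2.36 ± 0.81, edgeR adjusted p = 0.0341), neither of which DESeq2 called (adjusted p = 0.125 and 0.0634). Hoxc10 was called against wild-type clone 2 by both tools (edgeR adjusted p = 0.00147, DESeq2 adjusted p = 0.000511), and Hoxc9 against wild-type clone 1 by neither (edgeR adjusted p = 0.453, DESeq2 adjusted p = 0.586). Between the wild-type lines edgeR called Hoxc10 (-3.70 ± 1.23, edgeR adjusted p = 0.0329), DESeq2 did not (adjusted p = 0.055), and neither called Hoxc9 (edgeR adjusted p = 0.142, DESeq2 adjusted p = 0.205). The authors' deposited table lists Hoxc10 at a log2 fold change of 2.91 (adjusted p 0.0062) and Hoxc9 at 1.39 (adjusted p 0.0963). For the other members the authors' deposited table lists log2 fold changes of 5.55 for Hoxc4, 5.54 for Hoxc5, 5.20 for Hoxc6, 3.18 for Hoxc8 and -6.28 for Hoxc13. In the fit made here the pooled values were 5.47 ± 0.57 for Hoxc4, 5.47 ± 0.67 for Hoxc5, 5.17 ± 0.58 for Hoxc6 and 3.10 ± 0.61 for Hoxc8 (edgeR adjusted p from 3.4e-05 to 0.00345).

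At the posterior end the pattern turned. Hoxc13 (ENSMUSG00000001655, chr15:102829538-102837249), which in mice is needed for hair and nails, had 51, 35, 55 and 70 counts in wild-type clone 2, or 2.12, 2.00, 3.04 and 3.95 CPM. In wild-type clone 1 it had 1, 0, 1 and 1 counts, and in the KO-labelled libraries 0, 1, 0 and 0. Wild-type clone 2 thus stood apart from both other lines, which overlapped. Its ratio over wild-type clone 1 was 65.4 (counting interval 22.1 to 319.8; edgeR adjusted p = 6.9e-07), and over the KO-labelled line 182.4 (counting interval 32.4 to 7239; edgeR adjusted p = 6.7e-07).

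Between the KO-labelled line and wild-type clone 1, which had 1 and 3 Hoxc13 counts in all, no difference was detectable at this depth (edgeR adjusted p = 0.48). Of the 214 wild-type counts behind the pooled fall of Hoxc13 (edgeR adjusted p = 0.0462), 211 lay in wild-type clone 2. That pooled call was lost when any single library of wild-type clone 2 or of the KO-labelled line was left out (edgeR adjusted p from 0.0642 to 0.126), and also without both experiment 1 libraries that stood apart (edgeR adjusted p = 0.0825). Without those 2 libraries the other 4 members called in the pooled comparison remained called.

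By line, 4 members rose in the KO-labelled line against wild-type clone 1 and Hoxc13 did not pass the test, where 16.8% of genes rose and 19.3% fell. With no filter on low counts the median log2 fold change of all 7 members was 2.34, beside -0.01 over all genes. Against wild-type clone 2, 4 rose and 1 fell, where 19.2% of genes rose and 19.2% fell. Wild-type clone 2 against wild-type clone 1 had 1 member higher and 4 lower, where 20.7% of genes were higher and 21.9% lower. In that last comparison Hoxc8 fell by 2.47 ± 0.59 (edgeR adjusted p = 0.00405) and Hoxc6 by 2.84 ± 0.51 (edgeR adjusted p = 0.000546). Without experiment 3 of wild-type clone 2, Hoxc8 fell by 3.20 and Hoxc6 fell by 3.60. Hoxc5 was 34.4-fold lower (counting interval 5.75 to 1401; edgeR adjusted p = 0.000342) and Hoxc4 8.60-fold lower (counting interval 2.61 to 44.6; edgeR adjusted p = 0.00549). The wild-type lines thus differed from each other at all 5 tested HoxC genes. These 3 comparisons share libraries and are given side by side. The filter bears in the same way on the rises in the KO-labelled line and on Hoxc13 in wild-type clone 2.

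**Figure D2:**
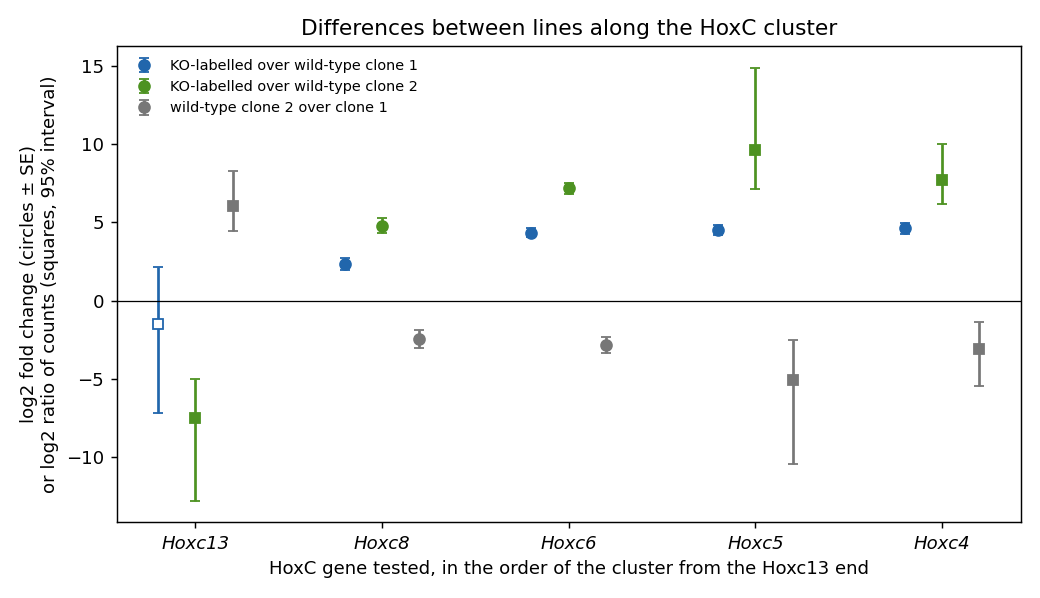
Differences between lines for the 5 tested HoxC genes in cluster order; circles are edgeR log2 fold changes ± SE, squares are log2 ratios of CPM with exact 95% counting intervals where the lower line had 1 to 3 counts in all, and open symbols did not pass the test. Hoxc8 to Hoxc4 lie above 0 in both comparisons of the KO-labelled line, and Hoxc13 lies far from 0 in both comparisons that involve wild-type clone 2.

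The summed HoxC level was 34.9, 27.7, 43.3 and 41.1 CPM in the KO-labelled libraries (mean 36.8 ± 7.02 SD, n = 4). It was 2.29, 2.67, 3.13 and 1.44 CPM in wild-type clone 1 (2.38 ± 0.719, n = 4) and 2.24, 2.17, 3.71 and 4.23 CPM in wild-type clone 2 (3.09 ± 1.04, n = 4). The wild-type lines overlapped in their sums while the counts came from different genes. Hoxc4 to Hoxc6 held 89.2 ± 1.57% of HoxC counts in the KO-labelled line, 60.7 ± 12.2% in wild-type clone 1 and 4.68 ± 3.20% in wild-type clone 2 (SD, n = 4 each). Hoxc8 and Hoxc9 held 9.97 ± 1.5%, 34.3 ± 12.8% and 4.82 ± 2.82%, and Hoxc10 with Hoxc13 held 0.867 ± 0.305%, 5.01 ± 2.27% and 90.5 ± 5.68%. The lowest share of Hoxc4 to Hoxc6 in the KO-labelled line, 88.0% in experiment 2 (exact 95% interval 84.7 to 90.8%), was above the highest in wild-type clone 1, 77.3% in experiment 1 (62.2 to 88.5%), with intervals that overlap. A wild-type library held 23 to 75 HoxC counts and a KO-labelled library 468 to 713, so the wild-type shares are the less precise.

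**Figure D3:**
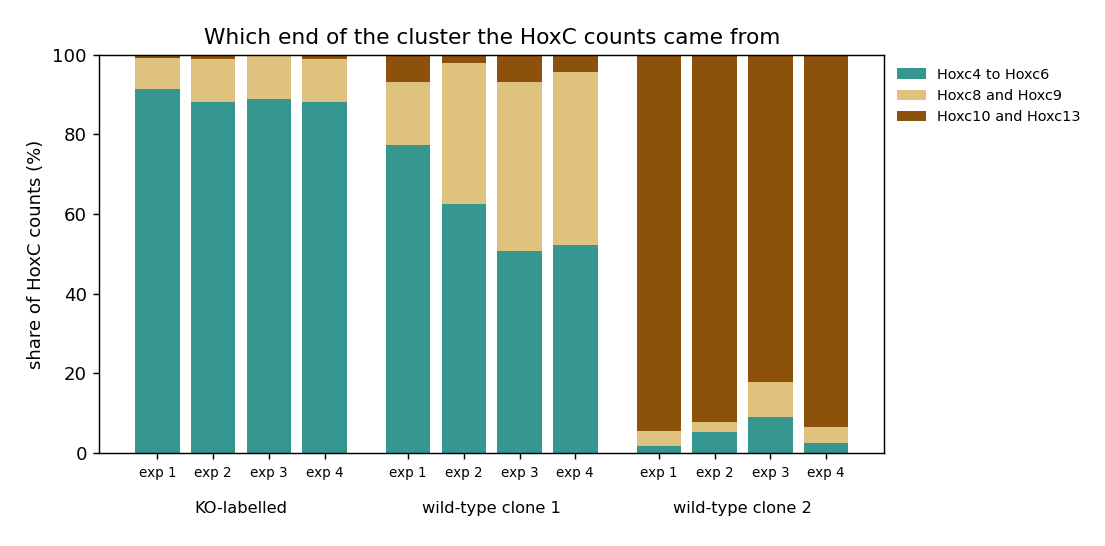
Share of each library's HoxC counts, in percent, that came from the anterior genes (Hoxc4 to Hoxc6), from Hoxc8 and Hoxc9, and from the posterior genes (Hoxc10 and Hoxc13); 1 bar per library. Anterior genes hold 88.0 to 91.5% in the KO-labelled libraries and 1.85 to 8.96% in wild-type clone 2, where posterior genes hold 82.1 to 94.4%.

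Levels of different genes were compared per length, as CPM per kb of exon. In the KO-labelled line the order was Hoxc6 (5.63 ± 1.04 CPM per kb, SD, n = 4), Hoxc5 (3.30 ± 0.776), Hoxc4 (3.26 ± 0.614), Hoxc8 (1.14 ± 0.297), Hoxc10 (0.144 ± 0.0571), Hoxc9 (0.0810 ± 0.0213) and Hoxc13 (0.00601 ± 0.0120). Hoxc6 led in all 4 libraries, Hoxc5 and Hoxc4 exchanged places in experiments 2 and 4 and did not differ beyond their spread, and the remaining genes kept their order. The level per length therefore peaked at Hoxc6 and was lower at each step from there towards the posterior end except between Hoxc9 and Hoxc10. With the authors' gene lengths in place of the union of exons, Hoxc5 came before Hoxc6 (16.6 and 15.9 CPM per kb) and Hoxc9 before Hoxc10 (0.355 and 0.155 CPM per kb), so that the exception between Hoxc9 and Hoxc10 was not seen; their length for Hoxc5, 615 bases, is that of the transcript that starts in the Hoxc10 exon, against 3089 bases in the union.

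In wild-type clone 1 Hoxc6 (0.273 ± 0.0823 CPM per kb) and Hoxc8 (0.225 ± 0.0920) came first and did not differ beyond their spread, with Hoxc8 ahead in experiments 3 and 4. Hoxc5 (0.141 ± 0.0564) and Hoxc4 (0.126 ± 0.0723) followed, also within their spread. The last places fell to Hoxc9 (0.0493 ± 0.0502), Hoxc10 (0.0390 ± 0.0332) and Hoxc13 (0.0170 ± 0.0115), which rest on 10, 6 and 3 counts. In wild-type clone 2 Hoxc13 led in all 4 libraries (1.13 ± 0.370 CPM per kb) and Hoxc8 came next (0.0403 ± 0.0417). The order below Hoxc13 rests on at most 9 counts per gene in the whole line and is not resolved. The per-length level of Hoxc13 in wild-type clone 2 was thus in the range of Hoxc8 in the KO-labelled line.

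Within the KO-labelled line the proportions of Hoxc4, Hoxc5 and Hoxc6 varied less between libraries than those of Hoxc8 to Hoxc5 or Hoxc4. Relative to its mean, the ratio of Hoxc8 to Hoxc6 varied no more than that of Hoxc6 to Hoxc5. Hoxc8 had 44 to 71 counts per library and the other genes 104 to 268, so counting error weighs more on its ratios. The ratio of Hoxc6 to Hoxc4 CPM was 1.53 to 1.91 over the 4 libraries, that of Hoxc6 to Hoxc5 was 1.20 to 1.73 and that of Hoxc5 to Hoxc4 was 1.09 to 1.29. The ratio of Hoxc8 to Hoxc6 was 0.196 to 0.275, that of Hoxc8 to Hoxc5 was 0.237 to 0.425 and that of Hoxc8 to Hoxc4 was 0.301 to 0.471. Each of Hoxc4, Hoxc5, Hoxc6 and Hoxc8 was lower in the libraries of experiments 1 and 2 than in those of experiments 3 and 4.

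Of HoxA, HoxB and HoxD the table holds 22 genes, of which 17 were tested. Against the pooled wild-type libraries edgeR called 1, Hoxa9, which rose, with a median log2 fold change of 0.34 over the 17. None was called lower, where 1 was lower at an unadjusted p under 0.05 and DESeq2 called 2 lower. Of all genes tested, 8.47% rose and 10.3% fell in that pooled comparison. Against wild-type clone 1, 1 rose and 8 fell (median -0.66), while 4 of the 5 tested HoxC genes rose. Of all genes tested, 16.8% rose and 19.3% fell there. Against wild-type clone 2, 16 of the 17 rose (median 7.97), where 19.2% of all genes tested rose and 19.2% fell. Between the wild-type lines 17 of 17 were lower in clone 2 (median -7.74), where 20.7% of all genes were higher and 21.9% lower. Each of the 17 was at 0.391 CPM or less on average in wild-type clone 2 and passed the filter on low counts through the other lines. The directions against wild-type clone 2 are thus largely set by the filter, and the shares over all genes are no measure of them. Of the 22 genes, none had its highest mean CPM in wild-type clone 2, as Hoxc13 did. No paralogue of Hoxc13 is among them, so whether the genes most like it share this is not known.

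Paralogues of the same number as the HoxC genes called were set beside them in the KO-labelled line and wild-type clone 1. Hoxc13 is left out here, as no paralogue of it has a row. Hoxa4 was at 1.76 ± 0.319 CPM in the KO-labelled line and 2.46 ± 0.378 CPM in wild-type clone 1 (log2 fold change -0.48 ± 0.21, edgeR adjusted p = 0.1), and Hoxb4 was at 4.16 ± 0.708 and 18.1 ± 1.06 CPM and fell by 2.12 ± 0.24 (edgeR adjusted p = 1.4e-05), where Hoxc4 rose. Hoxa5 (12.5 ± 2.76 and 13.2 ± 0.995 CPM) and Hoxb5 (2.71 ± 1.27 and 4.28 ± 0.372 CPM) did not pass the test against wild-type clone 1 (edgeR adjusted p = 0.742 and 0.0948). Hoxa6 (3.76 ± 1.01 and 2.36 ± 0.568 CPM) did not pass it either (edgeR adjusted p = 0.055), and Hoxb6 (8.88 ± 2.39 and 14.7 ± 1.87 CPM) fell by 0.73 ± 0.20 (edgeR adjusted p = 0.0104). Hoxb8 (9.41 ± 2.51 and 12.9 ± 1.39 CPM) did not pass (edgeR adjusted p = 0.132), and Hoxd8 (0.495 ± 0.179 and 8.57 ± 1.36 CPM) fell by 4.10 ± 0.31 (edgeR adjusted p = 3.4e-07). Hoxd4 was at 0.561 ± 0.263 CPM in wild-type clone 1 and had 0 counts in the other lines, and it did not pass the filter. In wild-type clone 2 each of these paralogues was at 0.391 CPM or less on average. Each CPM pair is mean ± SD with n = 4 per line.

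Summed over a cluster, HoxA was at 52.0 ± 10.2, 57.0 ± 4.93 and 0.384 ± 0.146 CPM in the KO-labelled line, wild-type clone 1 and wild-type clone 2 (SD, n = 4 each). HoxB was at 56.1 ± 12.4, 117.5 ± 9.82 and 0.500 ± 0.379 CPM, and HoxD at 0.509 ± 0.201, 9.92 ± 1.69 and 0.433 ± 0.258 CPM. The log2 ratio of the HoxC sum to the sum of the other clusters was -1.56 ± 0.04 in the KO-labelled line, with a range of -1.62 to -1.53, and -6.33 ± 0.44 in wild-type clone 1. In wild-type clone 2, where each other cluster summed to 0.500 CPM or less on average, it was 1.39 ± 0.58. The 3 lines did not overlap in this ratio. It depends on the lengths of the genes in each cluster and is read only between lines.

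**Figure D4:**
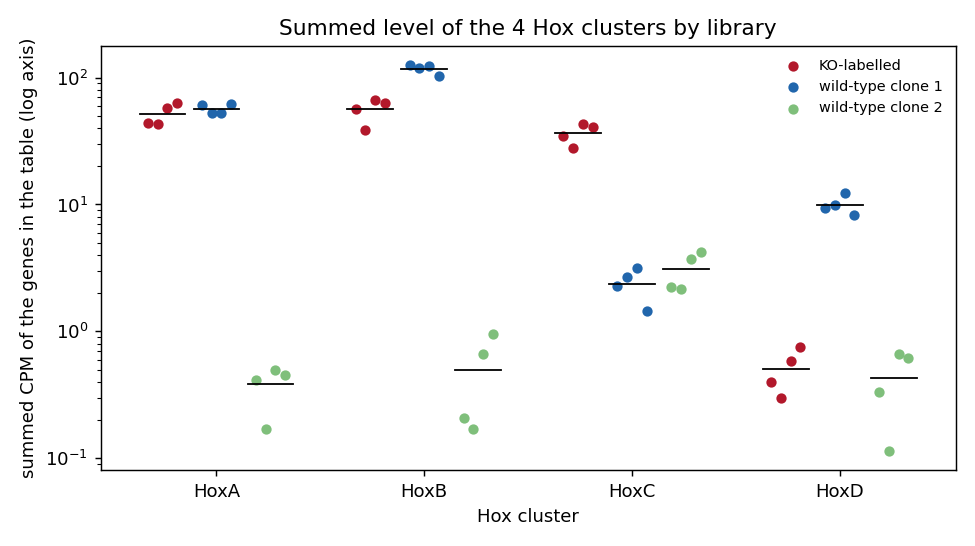
Summed CPM of the genes of each Hox cluster in each library, on a log axis; points are libraries and lines are means of 4. HoxA is at a like level in the KO-labelled line and wild-type clone 1 (52.0 and 57.0 CPM), whereas HoxC is at 36.8 and 2.38 CPM; in wild-type clone 2 HoxC, at 3.09 CPM, lies above the other clusters.

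The genes beside the cluster did not share its differences in size. Of 16 protein-coding genes with a row within 500 kb, 14 were tested. Against the pooled wild-type libraries edgeR called 1 of them, the integrin gene Itga5, which rose (log2 fold change 0.65 ± 0.21, edgeR adjusted p = 0.0458; median of the 14 genes 0.01). Against wild-type clone 1, 5 rose and 1 fell (median 0.14), against wild-type clone 2, 1 rose and 1 fell (median -0.05), and between the wild-type lines 4 were higher and 1 lower in clone 2 (median 0.20). Of all genes tested, 8.47% rose and 10.3% fell against the pooled wild-type libraries. Against clone 1, 16.8% rose and 19.3% fell, and against clone 2, 19.2% rose and 19.2% fell. Between the wild-type lines 20.7% were higher and 21.9% lower in clone 2. The nearest tested neighbour beyond Hoxc13 was Calcoco1, at 198.9 kb, with a log2 fold change of -0.26 ± 0.11 against wild-type clone 1 (edgeR adjusted p = 0.102). Beyond it lay Atp5mc2, at 248.8 kb (0.22 ± 0.18, edgeR adjusted p = 0.368), and Atf7, at 295.6 kb (-0.02 ± 0.10, edgeR adjusted p = 0.915). Beyond Hoxc4 the nearest was the DNA glycosylase gene Smug1, at 116.4 kb (0.09 ± 0.10, edgeR adjusted p = 0.492). It was followed by Cbx5, which encodes the heterochromatin protein HP1 alpha, at 154.2 kb (0.33 ± 0.11, edgeR adjusted p = 0.0271), and Hnrnpa1, at 203.1 kb (0.05 ± 0.10, edgeR adjusted p = 0.718). The largest of the 14 neighbour differences against wild-type clone 1 was that of Itga5, 0.93 ± 0.20 (edgeR adjusted p = 0.0025), below the 2.33 of Hoxc8.

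**Figure D5:**
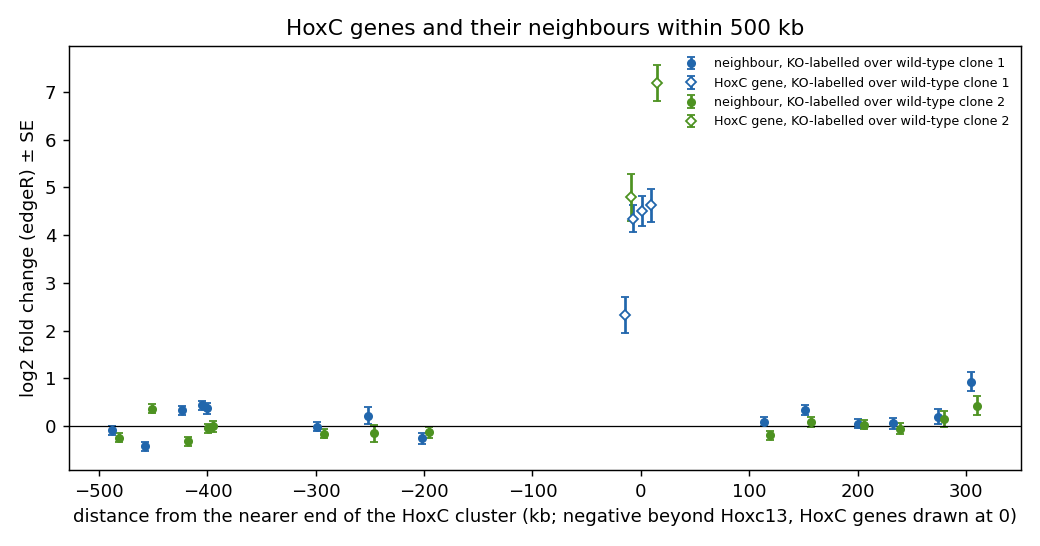
edgeR log2 fold changes ± SE of the KO-labelled line over each wild-type line for the 14 tested neighbours, by distance in kb from the nearer end of the cluster, and for the HoxC genes with more than 3 counts in the lower line (diamonds, drawn side by side at 0). The neighbours lie between -0.43 and 0.93 and these HoxC genes between 2.33 and 7.18.

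Among the proteins that work with Hox factors, 9 TALE homeodomain cofactors were tested. Against the pooled wild-type libraries, where 8.47% of all genes tested rose and 10.3% fell, 2 were called, both higher (median of the list 0.21). Pknox2 was at 10.3 CPM in the KO-labelled line, 1.84 CPM in wild-type clone 1 and 0.747 CPM in wild-type clone 2 and rose by 3.0 ± 0.38 (edgeR adjusted p = 0.000151). Meis3 was at 9.72, 5.32 and 2.77 CPM and rose by 1.26 ± 0.26 (edgeR adjusted p = 0.00471). For both genes the order of the lines was that of Hoxc4 to Hoxc8. The next in the list, Pbx3 (edgeR adjusted p = 0.11) and Meis1 (edgeR adjusted p = 0.272), did not pass. The wild-type lines differed as well, with 2 of the 9 cofactors higher and 6 lower in clone 2, Pknox2 and Meis3 among the lower. Of all genes tested, 20.7% were higher and 21.9% lower there.

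Against the pooled wild-type libraries, where 8.47% of all genes tested rose and 10.3% fell, 1 of 27 Polycomb genes was called (median -0.08). This gene, Phf19, which helps place the H3K27 methyltransferase, was at 11.4, 20.9 and 22.7 CPM in the KO-labelled line and wild-type clones 1 and 2 and fell by 0.94 ± 0.13 (edgeR adjusted p = 0.00028). The H3K27 methyltransferase gene Ezh2, at -0.13 ± 0.11, did not pass it (edgeR adjusted p = 0.458). Of 13 Trithorax and H3K27 demethylase genes 1 rose and 1 fell (median -0.05). Kdm6a, an X-linked H3K27 demethylase gene, was at 29.6, 51.2 and 59.5 CPM and fell by 0.90 ± 0.14 (edgeR adjusted p = 0.000543), and Wdr5, a core subunit of the H3K4 methyltransferases, rose by 0.28 ± 0.09 (edgeR adjusted p = 0.0345). Of 9 boundary and cohesin genes edgeR called 0 (median -0.10); 1 was lower at an unadjusted p under 0.05, and DESeq2 called 0. Ctcf, the insulator protein gene, was at -0.01 ± 0.08 (edgeR adjusted p = 0.965). Between the wild-type lines 7 of the 27 Polycomb genes were higher and 3 lower in clone 2, as were 1 and 3 of the 13 Trithorax and H3K27 demethylase genes and 3 and 0 of the 9 boundary and cohesin genes. Of all genes tested, 20.7% were higher and 21.9% lower in that comparison. There Phf19 (0.12 ± 0.13, edgeR adjusted p = 0.474) and Kdm6a (0.22 ± 0.13, edgeR adjusted p = 0.211) did not pass the test, and Cbx2, a Polycomb subunit gene named after its value was seen, fell by 1.17 ± 0.14 (edgeR adjusted p = 1.75e-05).

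Signals that switch Hox genes on in the embryo, above all retinoic acid, were covered by a list of 22 genes, of which 12 were tested. Against the pooled wild-type libraries 1 rose and 2 fell (median -0.18), where 8.47% of all genes tested rose and 10.3% fell. The retinoic acid binding protein gene Crabp2 was at 1.66, 7.14 and 45.0 CPM in the KO-labelled line and wild-type clones 1 and 2 and fell by 3.97 ± 0.80 (edgeR adjusted p = 0.00408). Cyp26b1, which encodes a retinoic acid degrading enzyme, was at 1.96, 24.7 and 13.3 CPM and fell by 3.27 ± 0.35 (edgeR adjusted p = 3.9e-05). Its relative Cyp26c1 was at 0.759, 0.199 and 0.344 CPM and rose by 1.47 ± 0.36 (edgeR adjusted p = 0.0123). Between the wild-type lines 6 of the 12 were higher and 3 lower in clone 2, where 20.7% of all genes were higher and 21.9% lower. There Crabp2 was higher by 2.66 ± 0.16 (edgeR adjusted p = 3.3e-08) and Cyp26b1 lower by 0.89 ± 0.19 (edgeR adjusted p = 0.0021). Cyp26c1 did not pass that test (0.77 ± 0.42, edgeR adjusted p = 0.164).

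The genes outside the Hox clusters whose log2 CPM followed Hoxc6 most closely over the 12 libraries were Plac8 (Pearson r = 0.991), the phosphatase gene Ubash3b (0.988), Car8, a carbonic anhydrase relative without the enzyme activity (0.987), the adenylyl cyclase gene Adcy7 (0.986) and the somite homeobox gene Meox1 (0.986). Plac8 was at 17.6 ± 3.86, 0.994 ± 0.421 and 0.0242 ± 0.0285 CPM in the KO-labelled line and wild-type clones 1 and 2 (SD, n = 4 each), and Meox1 at 32.8 ± 10.6, 0.445 ± 0.210 and 0.216 ± 0.162 CPM. The lowest r was that of the uncoupling protein gene Ucp2, the chemokine gene Cxcl14 and the pseudogene H2af-ps2 (each -0.99). Ucp2 was at 0.374 ± 0.177, 73.7 ± 5.24 and 125.7 ± 12.1 CPM. The 12 points fall into 3 lines and share their library depth, so r here takes in the differences between line means.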

How the data were processed

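Titles put the RNA-seq libraries into 3 lines of 4. Per the submitters' processing notes, reads were checked with FastQC and aligned and counted with STAR 2.5.4a on GRCm39; no source used here gives the GENCODE release, the strand setting or the filter that set the list of genes. The protocols give about 10 M reads per sample (paired ends of 150 bases), fewer than the counts in each library, which was not resolved. Per the file headers, the authors deposited raw counts per gene and library, a gene length in bases, and the authors' log2 fold change with p-values; set against the counts, its sign is KO over wild type. Of 15207 entries, 51 name no gene (2.04 to 5.25% of a library's counts) and were left out. Of 15156 gene IDs, 15153 were found in GENCODE vM39, which gave coordinates and exon lengths.

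All genes passing filterByExpr were tested on the deposited counts with edgeR 4.0.16 (R 4.3.3; TMM, quasi-likelihood F test, two-sided, Benjamini-Hochberg over 14392 genes, threshold 0.05), pooled (4 against 8) and with 1 mean per line. SE is the log2 fold change over the square root of F. CPM used TMM-scaled totals of named genes. Folds against a line with 0 counts use a floor of 3 counts over the line; ratios against 1 to 3 counts carry exact 95% intervals, counting error only, and depend on no prior count. Simulated counts (14362 genes tested, 200 changed 4-fold) gave 198 of them back in the pooled comparison, 196 against wild-type clone 1 and 198 against clone 2. Unchanged genes called numbered 10, 10 and 5. The simulated wild-type lines did not differ and only well-counted genes were changed. The simulation therefore does not give the power of the pooled test for HoxC genes. As alternatives, DESeq2 1.42.0 was run, its size factors were used in edgeR, the filter was dropped, the experiment number was added as a block, and others were 1 mean per line for the pooled comparison, limma-voom (3.58.1) with the line as a random block, and leaving out libraries. Correlations of deviations from line means ran from 0.04 to 0.75 for equal experiment numbers (median 0.233, 12 pairs) and from -0.54 to 0.41 for different ones (median -0.072, 36 pairs). All 4 equal-number pairs of the wild-type lines exceeded 0.1 (0.109 to 0.297), but different-number pairs of these lines reached 0.209. Against the KO-labelled line the lowest equal-number values were 0.10 and 0.04. Whether equal numbers are paired is thus not settled by the data, and the number was used as a block only in an alternative fit. The labels name no shared batch.

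The members, gene lists, markers and rules were chosen with earlier results of these data known. Named genes outside the cluster are the 3 nearest tested protein-coding neighbours on each side, Hox genes of equal number, up to 4 genes per list with the smallest pooled adjusted p, and the 5 most and 3 least like Hoxc6 (mean CPM at least 1). Itga5, Hoxa9, Ezh2, Ctcf and the marker genes were named after their values were seen. Figures and sums used Python 3.11.15, pandas 2.3.3 and matplotlib 3.10.9. Further homeobox sequence is not reported here.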

Additional observations from a re-analysis of the deposited data

Results flagged for a closer look

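In 30 groups of 4 libraries (each HoxC gene and each sum, by line), 4 held a library that stood apart from the other 3. For normally spread continuous values chance gives about 1 such group in 20, a rate that does not hold for groups of 0 and 1 counts. Hoxc13 was at 0.0592 CPM (1 count) in experiment 2 of the KO-labelled line and at 0 in the other 3 libraries. In wild-type clone 1 Hoxc13 was at 0 CPM in experiment 2 and had 1 count in each of the other 3. Hoxc5 was at 0.0564 CPM (1 count) in experiment 4 of wild-type clone 2 and at 0 in the others. These 3 rest on single counts. The log2 ratio of the HoxC sum to the sum of the other Hox clusters was 2.25 in experiment 2 of wild-type clone 2 against 1.02 to 1.23 in its other libraries.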

How the results depend on the processing

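Under the alternatives, 199 values for counts of calls, sums, shares, ratios and ranks stayed near the reported value (counts and ranks within 1.5 times, others within 1 SD of the libraries) and 7 moved further; of single-gene values 338 kept their direction and side of the threshold and 12 lost their call; none reversed. In the pooled comparison the genes called numbered 2700, 4871 with 1 mean per line and 230 with limma-voom and the line as a random block, where 3 HoxC genes were called in place of 5 (Hoxc8 3.77, adjusted p = 0.0899; Hoxc13 -3.43, adjusted p = 0.654). Leaving out 1 library gave at least 1830 pooled calls and 4 to 5 pooled HoxC calls, with Hoxc13 from -7.69 to -5.58. Per length, 3, 3 and 2 of 7 members kept their rank with the authors' gene lengths (KO-labelled line, wild-type clones 1 and 2; chosen after seeing the data), and 1 to 7 did in wild-type clone 2 with 1 library left out, 1 without experiment 4. With the experiment number as a replicate block, HoxC calls were 4 pooled (Hoxc13 -5.99, adjusted p = 0.0967, lost), 4 against clone 1, 5 against clone 2 and 5 between wild-type lines, no other HoxC call changed, and 4 of 12 libraries correlated best with their own number. The cause of these changes was not tested. Depth limits Hoxc9, Hoxc10 and all wild-type clone 2 members but Hoxc13.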
